A study of Mus musculus with 16 samples.

Results

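The 9 genes described here, Prm1, Prm2, Tnp1, Tnp2, Odf1, Akap4, Gapdhs, Ldhc and Smcp, are messages of spermatids and sperm measured in mouse fat. They were chosen by name, for what they are known to do in sperm, from the 27150 genes of the deposited mRNA table, and all 9 were found there. The samples were labelled as epididymal fat, a visceral depot attached to the epididymis. Messages of sperm-forming cells in such samples were read as a sign of germ cells, beside Foxj1, a gene of ciliated cells, and Crisp1, a gene of the epididymal epithelium.

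All libraries were from male mice labelled C57BL/6 (C57BL/6J in the growth text), 6 weeks old and about 22 g when purchased, and 4 groups of 4 libraries were compared. The normal diet group had no high-fat feeding and no drug. The HFD group received a high-fat diet with 60% fat for 8 weeks before the treatment period. The other groups received the same diet and then metformin, an antidiabetic biguanide, or resveratrol, a plant polyphenol, for 6 weeks, with no dose given in the labels. The labels do not say whether the high-fat diet went on during treatment. The study was set up as a model of insulin resistance. The titles and design text name fat, whereas retina is written in the extraction protocol and skeletal muscle in the treatment protocol. Of the 16 count columns, 14 matched a title, and the other 2 carried codes that gave the group only. They are called HFD unmatched and metformin unmatched, and no label says whether libraries came from separate animals, so p-values measure only the spread between libraries, which may be technical.

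Round spermatids, the haploid cells left after meiosis, turn into sperm by packing their DNA and building a tail. Histones are first replaced by transition proteins (Tnp1, Tnp2) and then by protamines (Prm1, Prm2), small arginine-rich proteins, while the sheath and fibres of the tail are laid down and sperm-specific enzymes of glycolysis are made. Many of these genes are switched on after meiosis through CREM, an activator that binds cAMP response elements in their promoters, and their messages are stored in the spermatid and translated late. Fat cells are not known for expressing them.

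Since the 9 genes are known as one late programme, their promoters were searched for the relaxed cAMP response element TGANNTCA, which is its own reverse complement and so was read on both strands at once. The pattern was chosen after the sequences had been looked at. RefSeq promoters (build GRCm38.p6, from 250 bases before the start) were given for 8 of the 9 genes, in 11 promoters, and not for Odf1. The pattern was present in 6 of the 11 promoters, belonging to 4 genes, against 11.9% of all 32851 promoters in the table. One stretch for each of the 4 genes follows, 5′ to 3′ on the gene's strand, with the match in capitals.
Prm1: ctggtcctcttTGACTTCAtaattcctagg
Tnp1: gcaaaggttagTGATGTCAcaagagagctg
Akap4: tatagaaacagTGATGTCAtgaattttaag
Gapdhs: cactccctctgTGATGTCActgggcaatgt

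The Prm1 stretch lies at chr16:10796869-10796898 on the minus strand, and its match begins at position -64 from the start site. The Tnp1 stretch lies at chr1:73015975-73016004 (minus strand, match from -94), the Akap4 stretch at chrX:7067469-7067498 (plus strand, match from -35) and the Gapdhs stretch at chr7:30743757-30743786 (minus strand, match from -94). The same Gapdhs promoter held another match from -76. The shorter core TGACG was found only in the Ldhc promoter among the members (17.8% of all promoters) and TATAAA only in that of Prm2 (12.4%), both strands counted. A match is a description of the letters and not a binding site.

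Counts per library summed to between 13350585 and 20531032 over all mRNA genes, so that 1 count was worth between 0.05 and 0.07 CPM, the count per 1 M mRNA counts of the library. A value of 3 counts or fewer was treated as at the floor, and 10 or more as clearly counted. Intervals are exact Poisson or Clopper-Pearson 95% intervals and cover counting error only. Metformin 2 and resveratrol 4 stood apart from the other 14 libraries. Their summed CPM of 15 adipocyte genes was 18130 and 1566, against 23350 to 35840 in the others. In metformin 2 only part of the 15 genes lay below the range of the other 14 libraries. Adipoq was at 1466 CPM there, against 1887 to 3757 CPM, but Plin1 at 856 CPM, within 697 to 1515 CPM. Retina genes summed to 15.9 CPM or less and skeletal muscle genes to 125 CPM or less in every library, but muscle genes were not even. In normal diet 1 all 10 had 10 counts or more, with 622 counts of Myh4 and 167 of Ckm, against at most 17 and 9 elsewhere. In each comparison that rests on either library, values without it are given.

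The 9 genes were concentrated in 2 libraries from different groups. Their summed level was 2149 CPM in metformin 2 and 797 CPM in resveratrol 4, which held 70.6% and 26.2% of the member CPM summed over all 16 libraries. The third library, resveratrol 2, had 33.6 CPM, followed by normal diet 1 with 23.1 CPM. A middle range of 6.43 to 10.7 CPM held normal diet 2, HFD unmatched, metformin 4 and metformin unmatched. Metformin 1 had 2.72 CPM and normal diet 4 had 1.14 CPM. The lowest 6 libraries, normal diet 3, HFD 1 to 3 and resveratrol 1 and 3, lay between 0.109 and 0.831 CPM, from 2 to 14 counts over all 9 genes together. Each of the 4 groups therefore held at least 1 library with over 100 member counts, and in all groups but metformin at least 1 library had 14 or fewer. In metformin 2 the 9 genes made up 0.215% of all mRNA counts, and in resveratrol 4 they made up 0.0797%. As these are bulk samples, fewer cells of a type and less RNA per cell cannot be told apart.

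**Figure D1:**
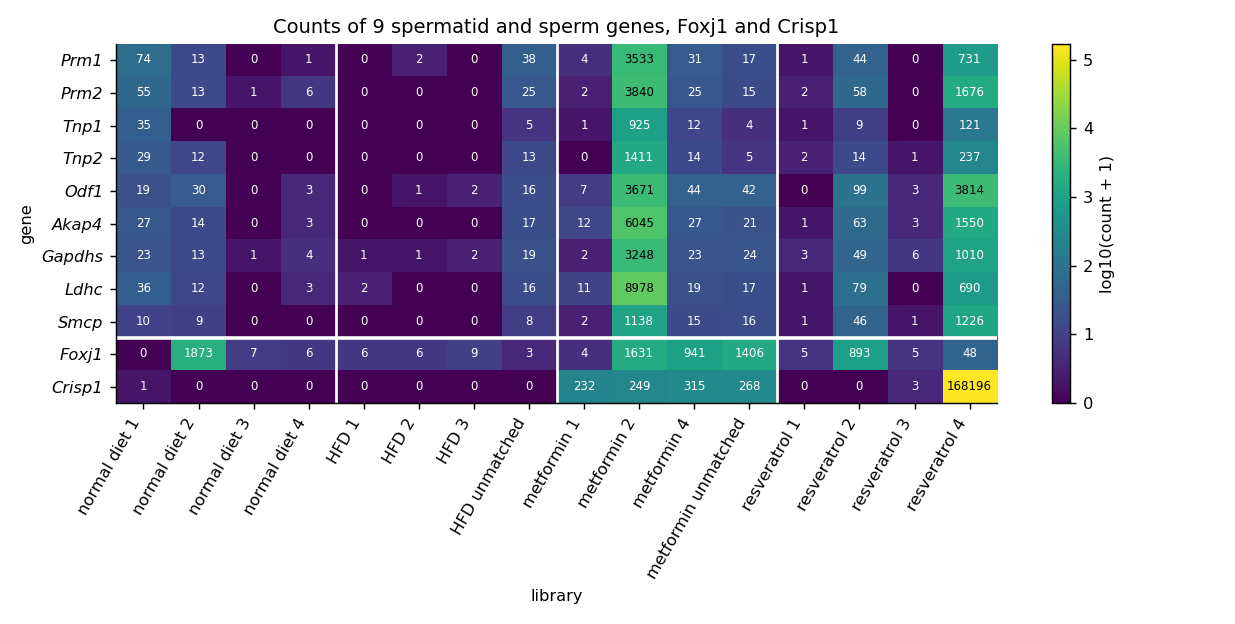
Counts of the 9 genes and, under the white line, of Foxj1 and Crisp1 (rows) in each of the 16 libraries (columns, grouped by diet and drug); colour is log10(count + 1) and the printed number is the count. Metformin 2 and resveratrol 4 are the bright columns, with 925 to 8978 and 121 to 3814 counts of each member.

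Genes are taken by role, beginning with the sperm nucleus. Within a group, counts are given in the order 1, 2, 3, 4 for the normal diet and resveratrol, 1, 2, 3, unmatched for HFD and 1, 2, 4, unmatched for metformin. Prm1, the protamine present in all mammalian sperm (chromosome 16, 10796326 to 10796886, GRCm38), had 74, 13, 0 and 1 counts on the normal diet and 0, 2, 0 and 38 in the HFD group. It had 4, 3533, 31 and 17 counts under metformin and 1, 44, 0 and 731 under resveratrol. Thus 8 libraries counted it clearly and every group overlapped every other. In CPM the 2 highest were 232 (interval 224 to 239) and 52.7 (49.0 to 56.7), and the third was normal diet 1 with 5.54.

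Prm2, the second protamine, which is made as a precursor, lies beside Prm1 on chromosome 16 (10791380 to 10796134). Its counts were 55, 13, 1 and 6 on the normal diet, 0, 0, 0 and 25 in the HFD group, 2, 3840, 25 and 15 under metformin, and 2, 58, 0 and 1676 under resveratrol. It followed Prm1 in most libraries, but the order of the protamines changed. The ratio of Prm2 to Prm1 counts was 0.743 in normal diet 1, 1.09 in metformin 2 and 2.29 in resveratrol 4.

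Tnp1 was clearly counted in 4 libraries, the fewest of any member, and Tnp2 in 7. Tnp1 (chromosome 1, 73015074 to 73015909) had 35 counts in normal diet 1, 5 in HFD unmatched, 1, 925, 12 and 4 under metformin, and 1, 9, 0 and 121 under resveratrol. It was at 0 in the other 6 libraries, among them normal diet 2, where all other members were found. Tnp2, which lies close to the protamines on chromosome 16 (10787936 to 10788655), had 29, 12, 0 and 0 counts on the normal diet, 13 in HFD unmatched and 0 in HFD 1 to 3. It had 0, 1411, 14 and 5 counts under metformin and 2, 14, 1 and 237 under resveratrol. By the limit of 3 counts, a 0 for Tnp1 allowed up to 0.146 CPM in HFD 3 and 0.178 CPM in resveratrol 3, the ends of the range over its 7 libraries at 0.

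Of the tail genes, Odf1, a main protein of the outer dense fibres that stiffen the tail (chromosome 15, 38219203 to 38226735), was higher in resveratrol 4 than in metformin 2. It had 19, 30, 0 and 3 counts on the normal diet, 0, 1, 2 and 16 in the HFD group, 7, 3671, 44 and 42 under metformin, and 0, 99, 3 and 3814 under resveratrol. In CPM it was 275 (interval 266 to 284) in resveratrol 4 and 241 (233 to 249) in metformin 2, and the intervals did not overlap.

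Smcp, a cysteine-rich protein of the capsule around sperm mitochondria (chromosome 3, 92583867 to 92588997), was the other member with its highest level in resveratrol 4. Its counts were 10, 9, 0 and 0 on the normal diet, 8 in HFD unmatched and 0 in HFD 1 to 3, then 2, 1138, 15 and 16 under metformin, and 1, 46, 1 and 1226 under resveratrol. Its level was 88.4 CPM in resveratrol 4 and 74.6 CPM in metformin 2. A RefSeq long non-coding RNA overlaps Smcp, and the strand setting of the counting is not given in the sources used here.

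Akap4, the scaffold that anchors protein kinase A in the fibrous sheath of the tail (chromosome X, 7067519 to 7078609), was instead higher in metformin 2. It had 27, 14, 0 and 3 counts on the normal diet, 17 in HFD unmatched and 0 in HFD 1 to 3, 12, 6045, 27 and 21 under metformin, and 1, 63, 3 and 1550 under resveratrol. The tail genes thus did not share 1 order of the 2 highest libraries.

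Of the energy genes, Ldhc, the lactate dehydrogenase of spermatocytes and sperm (chromosome 7, 46861203 to 46878142), was the most abundant member in metformin 2. Its counts were 36, 12, 0 and 3 on the normal diet, 2, 0, 0 and 16 in the HFD group, 11, 8978, 19 and 17 under metformin, and 1, 79, 0 and 690 under resveratrol. It reached 588 CPM (576 to 601) in metformin 2 and 49.8 CPM (46.1 to 53.6) in resveratrol 4. Its transcription starts earlier than that of the protamines, during meiosis.

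Gapdhs, the sperm form of the glycolytic enzyme GAPDH (chromosome 7, 30729775 to 30743681), was the only member with a count in all 16 libraries. It had 23, 13, 1 and 4 counts on the normal diet, 1, 1, 2 and 19 in the HFD group, 2, 3248, 23 and 24 under metformin, and 3, 49, 6 and 1010 under resveratrol. The RefSeq annotation places Sbsn, a protein-coding gene, over part of Gapdhs, and a long non-coding RNA over Ldhc. Reads shared with these could not be told apart.

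Levels of different genes were compared only per length, as CPM per kilobase of transcript. On that scale Ldhc (509), Prm1 (494) and Prm2 (405) led in metformin 2, followed by Odf1 (218), Tnp2 (168), Gapdhs (155), Akap4 (140) and Tnp1 (139), with Smcp (87.0) last. In resveratrol 4 the order was Odf1 (249), Prm2 (195), Prm1 (112), Smcp (103), Gapdhs (52.8), Ldhc (46.9), Akap4 (39.4), Tnp2 (31.1) and Tnp1 (20.0). Ldhc moved from first to sixth place and Smcp left the last place.

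The make-up of the member counts differed between libraries. Among the 8 libraries with 100 or more member counts, the nuclear genes held 62.7% (interval 57.0 to 68.1) in normal diet 1 and 51.6% (43.5 to 59.6) in HFD unmatched. They held 29.6% (29.1 to 30.1) in metformin 2 and 25.0% (24.2 to 25.8) in resveratrol 4. The tail genes held 59.6% (58.7 to 60.5) in resveratrol 4, 33.1% (32.6 to 33.6) in metformin 2 and 18.2% (14.04 to 22.95) in normal diet 1. The energy genes held 37.3% (36.8 to 37.8) in metformin 2 and 15.4% (14.7 to 16.1) in resveratrol 4. These intervals compare libraries and not conditions.

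The other 4 libraries with enough counts lay between these. In metformin unmatched, resveratrol 2 and normal diet 2 the tail genes held 49.1%, 45.1% and 45.7%, and in metformin 4 they held 40.95%. Their intervals overlapped one another, from 34.2% at the lowest bound to 57.1% at the highest. Each of these 4 libraries also had high Foxj1. Normal diet 1 and HFD unmatched, where the nuclear genes held the largest shares, had Foxj1 at the floor. The 2 highest libraries did not follow that order. Metformin 2, with Foxj1 at 107 CPM, had a tail share of 33.1%, and resveratrol 4, with Foxj1 at 3.46 CPM, had 59.6%.

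**Figure D2:**
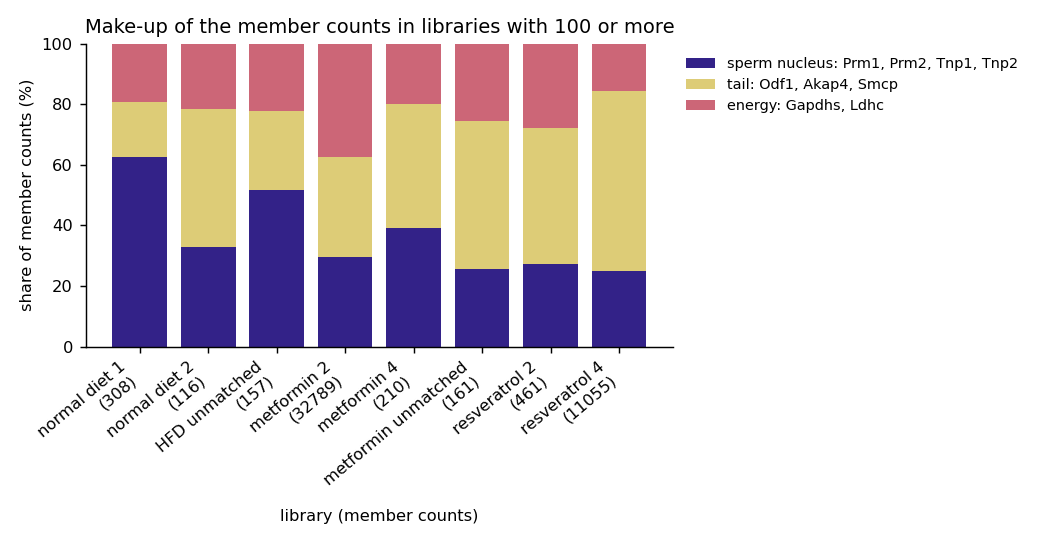
Share of the member counts (%) taken by the nuclear, tail and energy genes in the 8 libraries with 100 or more member counts, with that number in brackets. The nuclear share is largest in normal diet 1 (62.7%), the tail share in resveratrol 4 (59.6%) and the energy share in metformin 2 (37.3%).

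The 2 highest libraries differed gene by gene. The level in resveratrol 4 divided by that in metformin 2 was 1.19 for Smcp and 1.14 for Odf1, then 0.48 for Prm2, 0.342 for Gapdhs, 0.282 for Akap4, 0.228 for Prm1, 0.185 for Tnp2, 0.144 for Tnp1 and 0.0846 for Ldhc. The ratio of Odf1 to Ldhc counts was 0.409 in metformin 2 and 5.53 in resveratrol 4. Among other genes of the programme with at least 100 counts in metformin 2 and at most 5% of that library's level in the other 14, the median ratio was 0.136 for 16 flagellum genes, 0.0979 for 10 sperm energy genes and 0.0763 for 17 acrosome genes. For 11 genes of spermatocytes, the cells in meiosis, it was 0.0548. The lists were chosen with earlier results known and this rule favours genes high in metformin 2, so these medians are a description. The member median was 0.282. Other genes near 1 were Tssk6 (0.94), a kinase of late spermatids, Piwil2 (0.842) and Oaz3 (0.779).

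**Figure D3:**
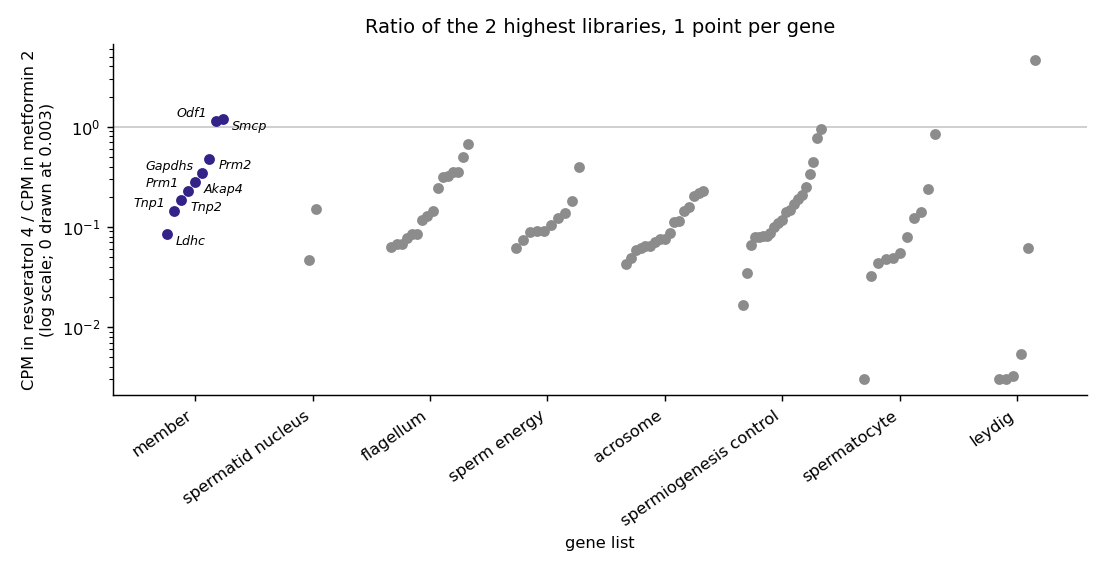
CPM in resveratrol 4 divided by CPM in metformin 2 (log scale), 1 point per gene, by gene list, with the members named; ratios of 0 are drawn at 0.003. Smcp and Odf1 lie above 1, while the medians of the other lists of the programme lie between 0.0548 for spermatocyte genes and 0.136 for flagellum genes.

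Other genes of the programme showed the same 2 libraries. Of 23 flagellum genes, all 23 were higher in metformin 2 than in any of the other 14 libraries, and 21 were higher in resveratrol 4. For 16 sperm energy genes the numbers were 16 and 15, for 24 acrosome genes 24 and 20, and for 29 genes that control spermiogenesis 29 and 27. Actl7b, an actin-like protein of spermatids, was at 124 CPM in metformin 2, 8.65 CPM in resveratrol 4 and at most 1.02 CPM elsewhere. The 7 further genes of the spermatid nucleus summed to 314 and 27.0 CPM in the same 2 libraries and to 4.86 to 11.4 CPM elsewhere, and of these Hils1, a spermatid linker histone, was at 73.8 CPM in metformin 2 and 3.46 CPM in resveratrol 4. Pgk2, the sperm form of phosphoglycerate kinase, was at 168 and 66.5 CPM, with at most 1.75 CPM elsewhere.

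Spermatocyte and Leydig cell genes had their highest sums in metformin 2, whereas the sums of spermatogonium and Sertoli cell genes did not set it apart. The 31 spermatocyte genes summed to 1302 CPM there. Their sum was 302 CPM in resveratrol 4, and the remaining 14 libraries lay between 101 and 139 CPM. Mael, a piRNA pathway gene, was at 168 CPM in metformin 2 and 13.4 CPM in resveratrol 4. The 15 genes of spermatogonia, the dividing stem-like germ cells, had a sum of 548 CPM in metformin 2, where Zbtb16 alone was at 277 CPM. The sum was 231 CPM in resveratrol 4, with Gfra1 at 127 CPM, and 206 to 586 CPM elsewhere, where Zbtb16 was at 173 to 554 CPM. Gene by gene, 11 of the 15 were higher in metformin 2 than in any of the other 14 libraries, and 4 in resveratrol 4. Of the 15, Ddx4, a helicase of germ cells, was at 157 and 10.8 CPM, and Dazl, an RNA-binding protein of germ cells, at 45.7 and 0.505 CPM. Of 9 Leydig cell genes, all 9 were higher in metformin 2 than in any of the other 14 libraries, and their sum was 631 CPM against 4.27 to 10.2 CPM. Insl3, a peptide hormone of Leydig cells, reached 380 CPM there and 1.23 CPM in resveratrol 4.

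Sertoli cell genes, whose sum is dominated by Trf and Clu, both also made by other cells, summed to 1871 CPM in metformin 2, 1161 CPM in resveratrol 4 and 1435 to 4288 CPM elsewhere, but single ones were split. Cst9 was at 25.2 CPM in metformin 2, 0.361 CPM in resveratrol 4 and at most 0.102 CPM elsewhere. In resveratrol 4 the Leydig sum of 229 CPM was almost all Cyp17a1, at 225 CPM, while Hsd3b1 and Hsd3b6, steroid-making enzymes of those cells, were at 0 and Star was at 2.16 CPM. Hsd17b3, another Leydig cell enzyme, had 10 counts there and at most 1 in the other 14. Of 18 Sertoli cell genes in the table, 14 were higher in metformin 2 than in any of the other 14 libraries and 4 in resveratrol 4, among them Clu (963 CPM against at most 123) and Cldn11 (24.7 CPM against at most 16.8). Cst12, Rhox5, Rhox8, Aard and Shbg were at 0 in resveratrol 4, and all of these but Aard were also at 0 in most of the other 14. How far these cells bear on the member levels was not tested.

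Resveratrol 4 was set apart by the epididymis. The 47 epididymis principal cell genes in the table summed to 30280 CPM there, 142 CPM in metformin 2 and 11.4 to 102 CPM in the other 14, and 38 of the 47 were higher in resveratrol 4 than in any of those 14. The highest were Crisp1 (12130 CPM), a secreted protein that coats sperm, Adam7 (5764 CPM) and Spink8 (3991 CPM). Vas deferens genes summed to 1707 CPM in resveratrol 4 and 53.1 CPM in metformin 2. In resveratrol 4 that sum was mostly Pate2 (1114 CPM), Aqp9 (332 CPM) and Crisp4 (197 CPM), which is also in the epididymis list. Not all epididymis genes took part. Gpx5, a secreted peroxidase of the head of the epididymis, was at 0 in both of these libraries and had its only counts, 23, in normal diet 2. Whether any of the member signal came with these cells was not tested.

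**Figure D4:**
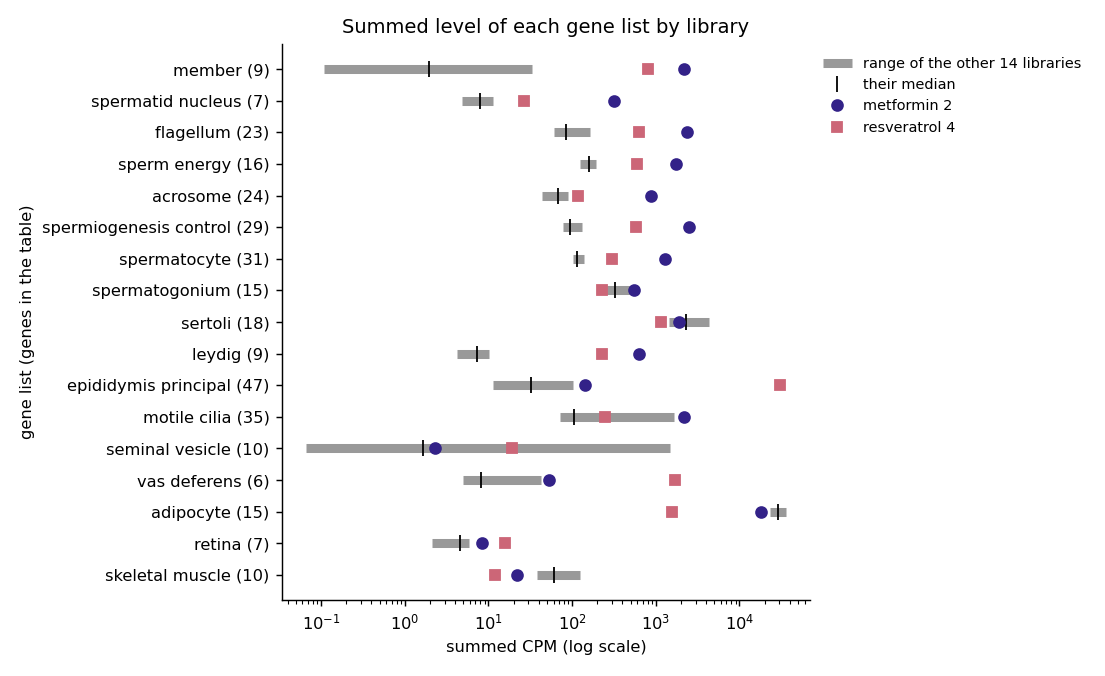
Summed CPM (log scale) of each gene list in metformin 2 and resveratrol 4, with the range and median of the other 14 libraries in grey and black; the number of list genes in the table is in brackets. The member sum is 2149 CPM in metformin 2 and 797 CPM in resveratrol 4, the epididymis sum is 30280 CPM in resveratrol 4, and the Leydig sum is 631 CPM in metformin 2.

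Foxj1, the master transcription factor of motile cilia, had its highest CPM in metformin 2, as the summed members did, but otherwise followed another order. With TMM scaling Foxj1 was instead highest in normal diet 2, at 97.4 CPM against 94.9 CPM in metformin 2. Its counts were 0, 1873, 7 and 6 on the normal diet, 6, 6, 9 and 3 in the HFD group, 4, 1631, 941 and 1406 under metformin, and 5, 893, 5 and 48 under resveratrol. It was at 107 CPM (interval 102 to 112) in metformin 2, where the members summed to 2149 CPM. Normal diet 2 was next with 104 CPM (99.2 to 109, an overlapping interval), where the members summed to 6.43 CPM. Normal diet 1, with 23.1 CPM of members, had no Foxj1 count, and HFD unmatched, at 9.22 CPM of members, had 3. A list of 35 motile cilia genes was high in the same libraries, with 839 to 2176 CPM in the 5 where Foxj1 had 893 counts or more. In the other 11 it summed to 72.4 to 248 CPM. Gene by gene, 26 of the 35 were higher in metformin 2 than in any of the other 14 libraries. Tekt1 was at 74.0 CPM in metformin 2 and 12.9 CPM in normal diet 2, while Dnah5 was at 173 and 203 CPM. Whether sperm-forming cells add to this list in metformin 2 was not tested.

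Crisp1 had 232, 249, 315 and 268 counts under metformin, or 15.8 ± 0.542 CPM (SD, n = 4), and 168196 counts in resveratrol 4. It had 3 in resveratrol 3, 1 in normal diet 1 and 0 in the other 9 libraries. Across the 16 libraries, Pearson's r of log2(CPM + 1) with the summed members was 0.549 for Foxj1 and 0.679 for Crisp1. Without metformin 2 and resveratrol 4 it was 0.599 and 0.284 over 14 libraries. These are descriptions, since the points share 2 dominant libraries. For each member against the sum of the other 8, r lay between 0.919 (Tnp1) and 0.976 (Prm1) over 16 libraries, and between 0.74 (Tnp1) and 0.963 (Akap4) over 14.

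**Figure D5:**
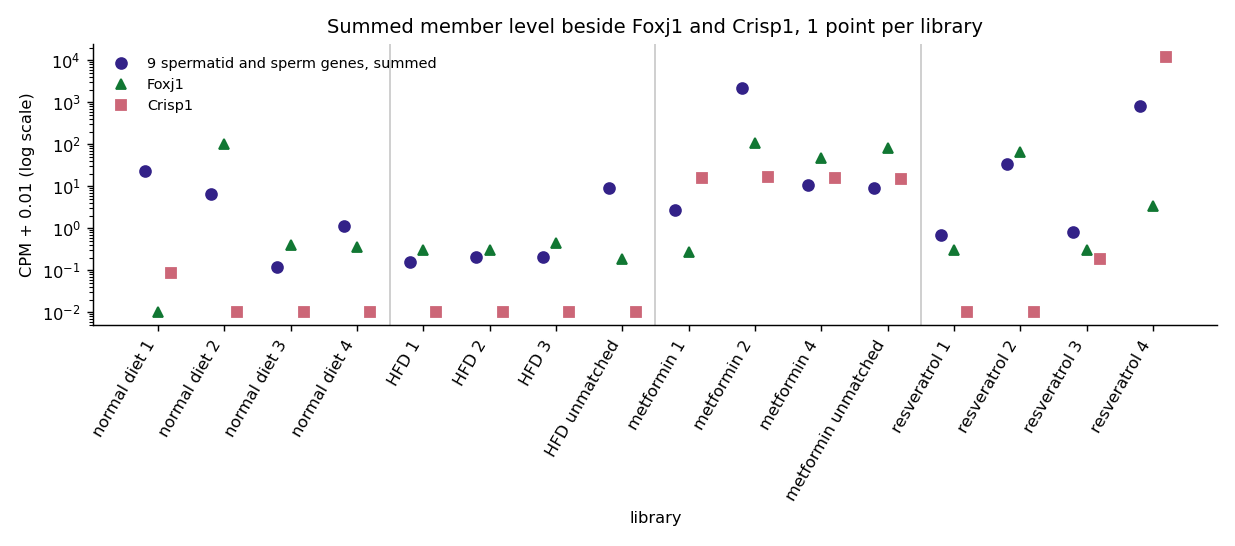
CPM + 0.01 (log scale) of the 9 summed members, Foxj1 and Crisp1 in each library, 1 point per library and gene or sum, with grey lines between groups. Foxj1 is high in 5 libraries, all metformin libraries but 1 among them, Crisp1 is at 15.2 to 16.3 CPM in all 4 metformin libraries, and the members peak in metformin 2 and resveratrol 4.

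Among 18701 other genes with 10 or more counts in at least 2 libraries, the 10 most like the summed members by r of log2(CPM + 1) over 16 libraries were Tcp11 (0.974), Slc2a5 (0.968), Atp8b3 (0.963), Gsg1 (0.962), Oaz3 (0.961), Ccdc136 (0.951), Pgk2 (0.949), 4933411K16Rik (0.947), Dbil5 (0.947) and Gm10297 (0.947). Without the 2 highest libraries r was between 0.764 (4933411K16Rik) and 0.964 (Gsg1). Tcp11 was at 358 CPM in metformin 2, 115 CPM in resveratrol 4 and at most 7.5 CPM elsewhere. Slc2a5, a fructose transporter, was at 137 CPM, 42.2 CPM and at most 4.3 CPM.

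The diet comparison asked what high-fat feeding changed in fat. None of the 9 members was called between HFD and normal diet (edgeR's quasi-likelihood test, Benjamini-Hochberg adjusted p from 0.488 to 0.829), and 8.83% of the 17337 genes tested were called. No member had an unadjusted p under 0.05, against 26.1% of all genes. DESeq2 returned no p-value for any member in any of the 3 comparisons. The log2 fold changes were -3.07 to -0.99, with a median of -1.54 against -0.05 over all genes, and rested on normal diet 1, normal diet 2 and HFD unmatched, since each of the other 5 libraries had 20 member counts or fewer. Normal diet 1 also carried the muscle counts of Myh4 and Ckm, whose part in the result was not tested. Prm1 was at 1.58 ± 2.66 CPM on the normal diet and 0.583 ± 1.10 CPM in HFD (SD, n = 4 each), a log2 difference of -1.40 (SE 2.42). Without normal diet 1, Prm1, Tnp1 and Gapdhs turned to 1.21, 3.44 and 0.014, and the median over the 9 was -0.10. Without HFD unmatched the median was -5.38. No member was called in either case.

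The metformin comparison asked what the drug changed on the high-fat diet. All 9 members had a higher mean in the metformin group, and none was called (edgeR adjusted p from 0.105 to 0.167), while 9 of 9 had an unadjusted p under 0.05, as had 24% of all genes. In this comparison 1.03% of all genes were called. The log2 fold changes were 6.49 (Prm1) to 9.02 (Ldhc), with a median of 7.29 against 0.04 over all genes. Ldhc was at 148 ± 294 CPM with metformin and 0.26 ± 0.456 CPM in HFD (SD, n = 4 each), a log2 difference of 9.02 (SE 2.93), and the groups overlapped, since HFD unmatched (0.94 CPM) was above metformin 1 (0.73 CPM). Without metformin 2 the log2 fold changes fell to between 0.66 and 2.63, with a median of 1.74 and a smallest adjusted p of 0.631. Without HFD unmatched the median was 11.21 and the smallest adjusted p was 0.117.

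The resveratrol comparison shares its HFD libraries with the metformin comparison. None of the 9 members was called (edgeR adjusted p from 0.112 to 0.284), and 2.28% of all genes were called. An unadjusted p under 0.05 was found for 5 of 9 members and for 25% of all genes. The log2 fold changes were 4.47 (Tnp2) to 7.94 (Odf1), with a median of 5.78 against 0.08 over all genes. Odf1 was at 70.6 ± 136 CPM with resveratrol and 0.272 ± 0.447 CPM in HFD (SD, n = 4 each), a log2 difference of 7.94 (SE 2.80). Resveratrol 1 (0 counts) and 3 (3 counts) lay below HFD unmatched (16 counts). Without resveratrol 4 the log2 fold changes were 0.81 to 3.19, with a median of 1.98 and a smallest adjusted p of 0.418. Without HFD unmatched the median was 9.21.

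The further lists of the sperm programme were read from the same tests. The filter on low counts was passed by 15 flagellum, 10 sperm energy, 10 acrosome, 18 spermiogenesis control and 2 spermatid nucleus genes. None was called in any of the 3 comparisons by edgeR. Over all genes 8.83% were called for diet, 1.03% for metformin and 2.28% for resveratrol. With metformin 15, 6, 10, 14 and 1 of them had an unadjusted p under 0.05, as had 24% of all genes. For resveratrol the numbers were 7, 3, 1, 4 and 0, against 25% of all genes. For diet they were 1, 0, 2, 0 and 0, against 26.1%. Without metformin 2 and resveratrol 4 the metformin numbers were 7 of 13, 1 of 9, 2 of 7, 1 of 16 and 1 of 2 tested. Over all genes the number was 4948 of 17336. Some flagellum genes were also high where Foxj1 was. Spag16 had 397 counts in normal diet 2, 233 in metformin 4, 338 in metformin unmatched and 196 in resveratrol 2. Tekt4 had 83, 48, 59 and 43 in the same libraries. How far ciliated cells bear on the flagellum number was not tested. Of 15 spermatocyte genes tested, Sycp3, a protein of the chromosome axis in meiosis, rose by 2.33 on the log2 scale (SE 0.582, edgeR adjusted p = 0.0266) in HFD against normal diet. It was the only call in that list, and leaving out any 1 of 7 of the 8 libraries compared ended it (edgeR adjusted p from 0.0503 to 0.0969). It was called by DESeq2 (adjusted p = 0.000716) and with the 2 compared groups only (edgeR adjusted p = 0.00647). Its log2 change lay between 1.95 and 2.60 in every setting. Sycp3 was highest in HFD 3, at 43.5 CPM, where the members summed to 0.195 CPM. Without metformin 2 and resveratrol 4, 13 of the 62 genes tested from these lists and the spermatocyte list were called for diet, or 21%, against 28.7% of all genes. Of these, Chd5, Spaca1 and Sycp3 were higher in HFD, and Cabyr, Catsper2, Cnbd2, Fhl5, Hormad2, Meiob, Odf2, Prdm9, Slc2a3 and Spaca6 were lower. In that setting Slc2a3 and Spaca6 were called higher with metformin (6.38% of all genes called), while with resveratrol (7.6%) Slc2a3 was called higher and Chd5 and Sycp3 lower. No member was called there in any comparison. Foxj1 was not called by edgeR in any comparison (adjusted p = 0.134, 0.115 and 0.171 for diet, metformin and resveratrol), but DESeq2 called it in all 3 (adjusted p = 0.00932, 0.00257 and 0.026). Its diet change rested on normal diet 2, without which it went from -6.24 to 0.3 (edgeR adjusted p = 0.966). For resveratrol it fell from 5.66 to 1.965 without resveratrol 2 (edgeR adjusted p = 0.627). Crisp1 was not called by edgeR either (adjusted p = 0.927, 0.195 and 0.0719). With metformin it was called higher without metformin 2 and resveratrol 4 (edgeR adjusted p = 0.0115) and in the fit to the compared groups only (edgeR adjusted p = 0.00257), against 0.189 to 0.336 under the other edgeR alternatives.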

How the data were processed

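RNA of 16 libraries was measured by sequencing. Per the file headers, the authors deposited raw counts per mRNA transcript with FPKM values beside them. Per the submitters' processing notes, fastp, HISAT2 and build GRCm38 were used, with no counting tool, annotation release or strand setting named there. The mRNA header was 1 name short, and 5 broken records were rejoined. FPKM values and transcript lengths deposited by the authors for long non-coding RNAs served only to check the column order. In the 14 libraries checked, the implied library total differed by at most 0.0418%. HFD unmatched and metformin unmatched were not checked. A further 4 FPKM columns of the codes without a title were not used.

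Counts of 91879 transcripts were summed to 27150 genes. CPM are relative to the library's mRNA total. The test was edgeR's (version 4.0.16, R 4.3.3) robust quasi-likelihood fit to all 16 libraries after its low-count filter and TMM scaling, with Benjamini-Hochberg adjustment over all genes, two-sided, at 0.05. All 9 members passed the filter. The code was tested on simulated data. DESeq2 1.42.0, no filter, no TMM, the 2 compared groups only, and fits with libraries left out were the alternatives. Motifs, tables and figures used Python 3.11.15.

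The 9 members, Foxj1 and Crisp1 were always named, with the 10 genes most like the members, up to 3 leading genes of each list, and defining markers at 0. Other genes named were chosen after their values were seen. The members and the 17 gene lists were chosen with earlier results of these data known. Rhox10, Fshr, Lcn9, Cst11 and Pde6b were listed but not analysed here. Replicate numbers follow accession order and pair nothing.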

Additional observations from a re-analysis of the deposited data

Results flagged for a closer look

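Within groups of 4 libraries, the gap between the highest or the lowest library and the nearest other, divided by the whole range, whichever end gave more, was compared with Dixon's 95% critical value, 0.8298 as computed for 4 normal values. Of 40 groups (the 9 members and their sum in 4 groups), 33 exceeded it, all at the high end. For normal values chance would give about 1 in 20. That rate does not carry over to these CPM values, since many groups held libraries at the floor beside a higher one. How often chance alone would exceed the limit here was not tested, so the ratios are a description. The 9 members move together, so the 33 groups are not separate events.

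Metformin 2 was the outlying library for every member and for the sum. The ratio was 0.9943 for Prm1, 0.9954 for Prm2, 0.9910 for Tnp1, 0.9923 for Tnp2, 0.9920 for Odf1, 0.9985 for Akap4, 0.9942 for Gapdhs, 0.9996 for Ldhc, 0.9896 for Smcp and 0.9963 for the sum. Resveratrol 4 was the outlying library in its group, with 0.9392 for Prm1, 0.9651 for Prm2, 0.9249 for Tnp1, 0.9436 for Tnp2, 0.9738 for Odf1, 0.9595 for Akap4, 0.9533 for Gapdhs, 0.8844 for Ldhc, 0.9628 for Smcp and 0.9587 for the sum.

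HFD unmatched stood out in the HFD group at far lower levels, with 0.9556 for Prm1, 0.8964 for Odf1, 0.9549 for Gapdhs, 0.8952 for Ldhc, 0.9944 for the sum and 1.0000 for Prm2, Tnp1, Tnp2, Akap4 and Smcp, whose other 3 libraries were at 0. Normal diet 1 stood out for Prm1 (0.8700), Prm2 (0.8361) and Tnp1 (1.0000), the last with the other 3 libraries at 0, and not for Tnp2 or the tail and energy genes.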

How the results depend on the processing

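No member was called under any of the 12, 13 and 12 edgeR alternatives for diet, metformin and resveratrol, with smallest adjusted p-values of 0.236 to 0.677, 0.0778 to 0.631 and 0.08 to 0.418. With the 2 compared groups only, no member passed the filter for diet or resveratrol and 6 did for metformin. Direction was kept in 114 of 117, 123 of 123 and 117 of 117 alternative fold changes, DESeq2 included. The exceptions were for diet without normal diet 1: Prm1 (1.21), Tnp1 (3.44) and Gapdhs (0.014), which ranged down to -5.24, -6.50 and -3.14 without HFD unmatched. The 2 highest libraries held 96.8% of the member CPM, and 96.5% with TMM scaling.

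The number of all genes called, 1531 for diet, 179 for metformin and 395 for resveratrol, moved widely. DESeq2 called 3064, 2214 and 2230, and the fit without metformin 2 and resveratrol 4 called 4979, 1106 and 1317. The compared groups alone gave 4577, 1142 and 0, and no filter gave 1055, 0 and 214. Without TMM, metformin had 1 call, against 1404 for diet and 347 for resveratrol. Without the columns of no title, metformin had 458 and resveratrol 710. Leaving out 1 library gave 375 to 1916, 0 to 713 and 0 to 915 calls. The cause was not tested. No paired analysis was possible because replicate numbers follow accession order. At 3 counts or fewer, differences between members in the lowest libraries were not detectable at this depth.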

Other observations

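Crisp1 was not alone in having a low level in all 4 metformin libraries. A total of 27 genes, Crisp1 and 9 others of the epididymis principal cell list among them, had at least 5000 counts in resveratrol 4 and at most 10 in every normal diet and HFD library, a rule chosen after the values were seen. As a share of the count in resveratrol 4, their median was 0.0959% in metformin 1, 0.15% in metformin 2, 0.153% in metformin 4 and 0.138% in metformin unmatched. It was 0 in resveratrol 1 to 3. Each of the 27 genes had at least 2 counts in each metformin library. The 9 sperm genes together had, on the same scale, 0.371% in metformin 1, 1.9% in metformin 4 and 1.46% in metformin unmatched, but also 4.17% in resveratrol 2 and 2.79% in normal diet 1. What links the metformin libraries to resveratrol 4 was not tested.

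Seminal vesicle genes were another signal of the reproductive tract, at 1466 CPM in normal diet 4, where the sperm genes summed to 1.14 CPM. Svs4, a secreted protein of that gland, was at 451 CPM there, 0.197 CPM in metformin 2 and 0 in resveratrol 4. The list summed to 364 CPM in normal diet 2, 54.7 CPM in normal diet 1 and 1.64 CPM in normal diet 3.

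Counts of Akap4, Gapdhs and Ldhc were assigned to different transcripts in different libraries. For Akap4, ENSMUST00000115750 held all 27, 14 and 12 counts in normal diet 1, normal diet 2 and metformin 1, but 2 of 6045 in metformin 2 and 0 of 1550 in resveratrol 4, where ENSMUST00000115751 had 5665 and 1298. For Gapdhs, ENSMUST00000182634 held 132 of the counts of the other 14 libraries and ENSMUST00000074758 held 39, against 658 and 2571 in metformin 2. For Ldhc, ENSMUST00000210585 held 6 of 11 counts in metformin 1 and 2645 of 8978 in metformin 2, but 0 of 36 in normal diet 1, where ENSMUST00000014545 held 35. How the counting assigned reads to transcripts is not given in the sources used here.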
